A study of Homo sapiens with 4 samples.

Results

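The heat shock protein genes described here are HSPA1A, HSPA1B, HSPA8, HSP90AA1, HSP90AB1, DNAJB1, HSPH1, HSPB1, HSPD1 and HSPE1. They were chosen by name, with earlier results of these data known, and all 10 were found among the 32955 genes of the expression table. RNA-seq was used to compare MDA-MB-231, a mesenchymal-type human breast cancer cell line without estrogen receptor, after transfection with a control oligonucleotide (mimic NC, n = 2) or with a double-stranded RNA that acts as the microRNA miR-217 (miR-217 mimic, n = 2). All 4 libraries came from this single line, and no heat or other stress is named in the labels. The replicates carry the numbers 1 and 2, and no label says what a number marks or whether libraries came from separate cultures, so each p-value measures only the spread between these libraries.

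Expression is given as RPKM, the reads on a gene scaled to its length in kilobases and to the total reads on all listed genes of the library. The libraries held 32635814 to 57933183 reads, and the 10 genes together took 0.927% to 1.34% of them, with 2377 to 322201 reads per gene and library. The first principal component held 71.3% of the variance and set both libraries numbered 1 apart from both numbered 2. Mitochondrial genes took 3.56% and 3.58% of reads in the libraries numbered 1, and 3.97% and 4.78% in those numbered 2. VIM, CD44, AXL and ZEB1, which mark this line, were at 6.23 to 36.9 RPKM. KRT18, a keratin that was also taken as present in this line, was higher than these, at 142 to 303 RPKM. EPCAM, an epithelial gene that was taken as low in this line, was at 3.90 to 7.41 RPKM. ESR1 did not exceed 0.0756 and CDH1 0.433 RPKM. Of genes of other cells, PECAM1 of endothelium did not exceed 0.138 RPKM, and PTPRC of leukocytes was at 0.351 to 1.25 RPKM. PGR and ALB were looked for by name and were not among the genes of the expression table.

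Heat shock proteins are chaperones, which hold or fold other proteins and so limit their aggregation. HSP70 proteins bind short unfolded stretches with the help of an HSP40 protein that delivers the client and of an exchange factor that releases ADP, HSP90 proteins mature kinases and receptors, small heat shock proteins hold unfolded proteins without using ATP, and HSP60 with its lid HSP10 folds proteins inside mitochondria. When unfolded proteins build up, the transcription factor HSF1 forms trimers and binds heat shock elements, inverted repeats of the unit NGAAN, and raises many of these genes together, while others are expressed at high levels without stress. Cancer cells commonly express them at high levels.

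Heat shock elements were looked for in the RefSeq promoter windows (GRCh38.p14), because HSF1 raises many of these genes through them. The windows run from 250 bases before to 50 bases after each start site. The members were chosen by name and not by motif. Heat shock protein genes as a class are known for this control, so the shares below describe the members and test nothing. A pair of facing units, spelled GAANNTTC or TTCNNGAA, was found in 9 of the 16 windows of the members, compared with 13.5% of 35116 windows of all genes. By gene, 8 of 10 members held a pair, compared with 16.2% of 27305 genes. A run of 3 alternating units, spelled GAANNTTCNNGAA or TTCNNGAANNTTC and holding 2 overlapping pairs, was found in 4 of 10 members (HSPA8, HSP90AA1, HSP90AB1 and HSPD1), compared with 0.608% of all genes. HSPH1 and HSPE1 held neither in these windows. These are matches of letters, and binding of HSF1 was not measured. Stretches of 50 bases are printed 5′ to 3′ on the strand of the gene, with the matches in capitals, for the match nearest to the start site in most members:

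HSPA1A (chr6:31815416-31815465, plus strand): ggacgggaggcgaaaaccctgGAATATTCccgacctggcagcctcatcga

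HSPA1B (chr6:31827612-31827661, plus strand): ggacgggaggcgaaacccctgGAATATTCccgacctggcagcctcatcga

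HSPA8 (chr11:123062161-123062210, minus strand): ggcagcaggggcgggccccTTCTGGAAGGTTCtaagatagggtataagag

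HSP90AA1 (chr14:102087102-102087151, minus strand): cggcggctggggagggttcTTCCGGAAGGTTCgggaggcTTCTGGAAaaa

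HSP90AB1 (chr6:44247812-44247861, plus strand): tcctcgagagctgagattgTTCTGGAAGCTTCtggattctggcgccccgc

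DNAJB1 (chr19:14518416-14518465, minus strand): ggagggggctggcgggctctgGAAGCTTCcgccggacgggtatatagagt

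HSPB1 (chr7:76302470-76302519, plus strand): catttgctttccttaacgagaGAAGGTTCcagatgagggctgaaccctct

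HSPD1 (chr2:197500041-197500090, minus strand): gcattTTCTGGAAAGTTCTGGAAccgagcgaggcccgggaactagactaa

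In HSPA1A and HSPA1B the stretches are nearly the same, and 277 of 299 bases of their aligned windows were identical. HSPA8, HSP90AA1 and HSP90AB1 show the run of 3 units, with a further pair 68 bases before the start in HSP90AA1. In HSPD1 overlapping runs lie 245 bases before one of its start sites. HSPE1 is transcribed in the opposite direction from a start site 539 bases away, and the same element lies 294 to 311 bases before that start, outside the window searched for HSPE1.

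**Figure D1:**
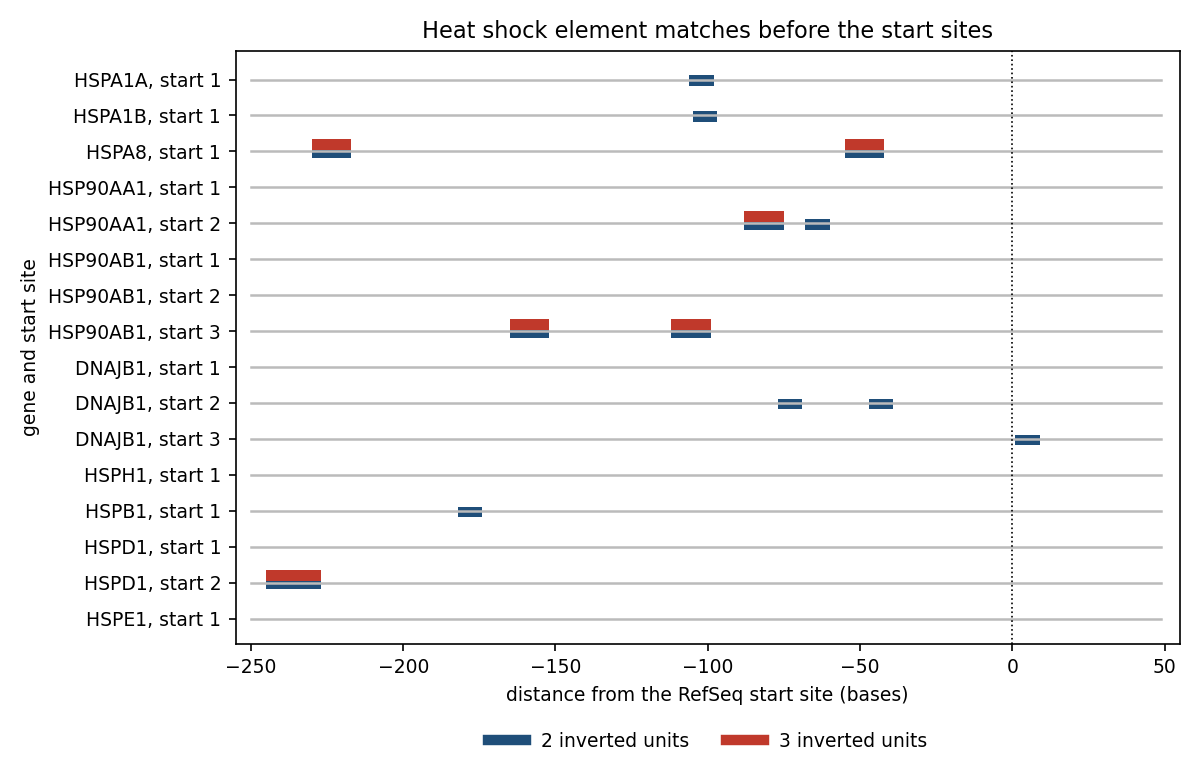
Heat shock element matches in the 16 promoter windows of the 10 members, by distance in bases from each RefSeq start site (0, dotted line). Blue bars are pairs of facing units and red bars runs of 3 units, and 9 windows of 8 genes hold a match.

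All 10 genes were expressed in every library, and their levels per kilobase spanned from 32.7 to 1938 RPKM. HSP90AB1, the constitutive HSP90, was highest and ranked 26 of 13871 genes by mean RPKM. HSP90AA1, the stress-inducible HSP90, followed at rank 65. HSPA8 (constitutive HSP70), HSPA1B, HSPD1 (HSP60), HSPA1A and HSPE1 (HSP10) held ranks 218 to 352, and the ranges of their 4 libraries overlapped. HSPB1 (rank 995), DNAJB1 (1134) and HSPH1 (1371) were lowest, and neighbours among them also overlapped. These ranks depend on the listed lengths. HSPH1 had more reads than HSPB1 and DNAJB1 in each library, over 8390 exon bases compared with 1634 and 3672. HSPA6, an HSP70 gene known to be transcribed almost only under heat or similar stress, was at 0.0146 to 0.0775 RPKM and CRYAB, a small heat shock protein, at 0 to 0.0371.

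**Figure D2:**
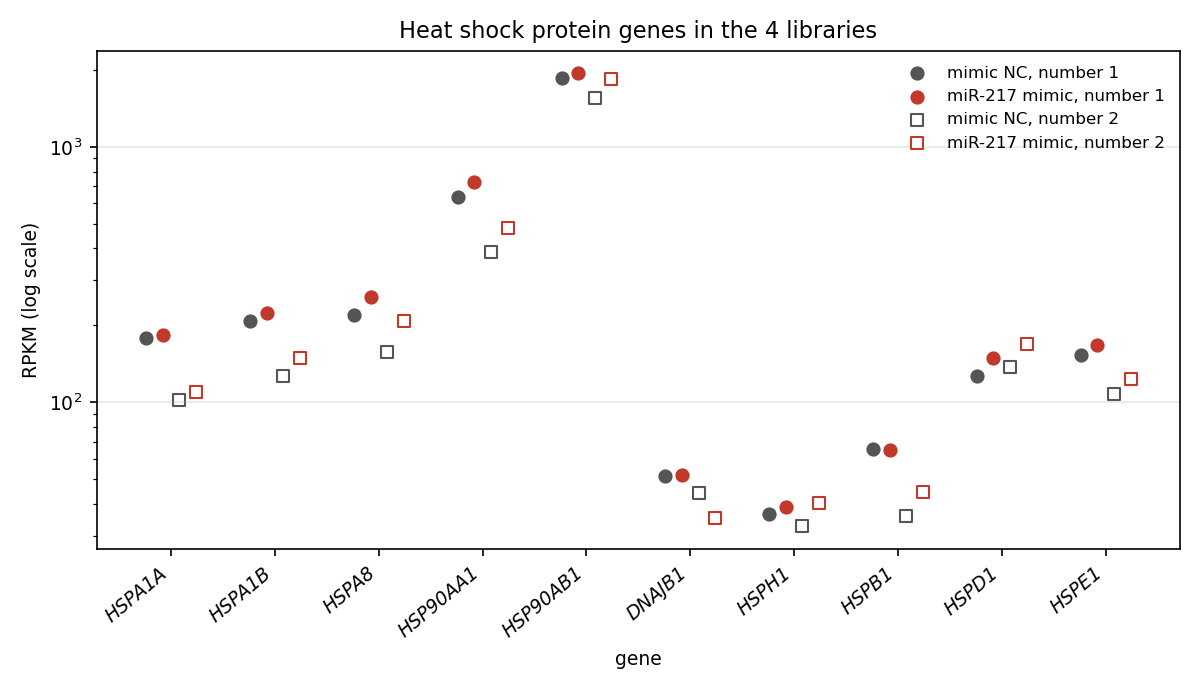
RPKM (log scale) of the 10 heat shock protein genes in each of the 4 libraries, filled circles for number 1 and open squares for number 2, grey for mimic NC and red for miR-217 mimic. For 8 genes both squares lie below both circles, the exceptions being HSPH1 and HSPD1.

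The first comparison asked whether miR-217 mimic changed the heat shock protein genes. None passed the test with limma on log2(RPKM + 1): the adjusted p was 1.00 for each, and 0% of the 13871 genes tested passed at an adjusted p under 0.05 after Benjamini-Hochberg adjustment. At an unadjusted p under 0.05, 0 of 10 members and 1.19% of all genes (165) were counted. The log2 fold changes of the members ran from -0.15 for DNAJB1 to 0.31 for HSPA8, with a median of 0.16, compared with -0.02 over all genes tested. They were positive in 9 of 10. The median was -0.10 without mimic NC replicate 2 and -0.06 without miR-217 mimic replicate 1. Such fits compare unequal mixes of the 2 numbers, along which the libraries differed most. They therefore cannot show whether the direction was stable. Within the numbers the median was 0.10 (number 1) and 0.27 (number 2). With 2 libraries a group, an exact two-sided permutation test cannot give a p below 0.333.

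HSPD1 and HSPH1 were the members whose groups did not overlap. For HSPD1, the barrel of the mitochondrial chaperonin, mimic NC libraries 1 and 2 gave 126.9 and 137.0 RPKM, and miR-217 mimic libraries 1 and 2 gave 149.2 and 169.3 RPKM. The means were 132 ± 7.14 and 159 ± 14.2 RPKM (SD, n = 2 each), 20.7% apart, with a log2 fold change of 0.27 (limma, 95% interval -0.10 to 0.64, unadjusted p = 0.122). For HSPH1, the HSP110 exchange factor of HSP70, the values were 36.4 and 32.7 RPKM in the mimic NC libraries and 38.9 and 40.2 RPKM in the miR-217 mimic libraries. The log2 fold change was 0.19 (limma, 95% interval -0.14 to 0.52, unadjusted p = 0.189). Both miR-217 mimic libraries were thus above both mimic NC libraries in 2 of 10 members, where 9.72% of all genes tested showed the same order.

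In the other 8 members the libraries of the groups overlapped. HSPA8, which folds newly made proteins in unstressed cells, had 219.7 and 157.1 RPKM in the mimic NC libraries and 257.3 and 207.6 in the miR-217 mimic libraries, and its log2 fold change was 0.31 (limma, 95% interval -0.27 to 0.90, unadjusted p = 0.225). It ranged from 0.07 without mimic NC replicate 2 to 0.55 without mimic NC replicate 1. HSP90AA1 had a log2 fold change of 0.25, HSPA1B of 0.17, HSP90AB1, HSPB1 and HSPE1 of 0.15, and HSPA1A of 0.06. DNAJB1, the HSP40 partner of HSPA1A and HSPA8, had -0.15. The widest interval, that of HSPA1A, ran from -0.91 to 1.04. This fit has no term for the replicate number, so differences between the numbers widen the intervals.

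Within a replicate number, miR-217 mimic was above mimic NC in the same 8 members both times. The median log2 difference of the 10 members was 0.10 between the libraries numbered 1 and 0.27 between those numbered 2, and that of all genes tested was -0.01 and -0.02. HSPA8 differed by 0.23 and 0.40, HSPD1 by 0.23 and 0.30, HSP90AA1 by 0.19 and 0.30, and HSPA1A by 0.04 and 0.09 on the log2 scale. DNAJB1 and HSPB1 were the exceptions, at 0.01 and -0.31 and at -0.01 and 0.30. Each of these is the difference of 1 library from 1 other, with no replicate.

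Longest 3′UTRs (GENCODE 29) were searched for the site of miR-217, since a mimic acts through pairing of its seed with such sites. The mature microRNA (RefSeq, GRCh38.p14, chr2:55983020-55983042, minus strand) is printed with the seed, bases 2 to 8, in capitals, and the only site found among the members, that of HSPH1 at bases 1876 to 1882 of its 2344-base 3′UTR (chr13:31135425-31135453, minus strand), is printed with the complement of the seed, ATGCAGT, in capitals:

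hsa-miR-217-5p: uACUGCAUcaggaacugauugga

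HSPH1 site: tttaaatttttATGCAGTtaatatgtttc

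Of the 10 members 1 held the site, compared with 14.5% of 9907 tested genes. As given above, HSPH1 was higher in both libraries with the mimic and did not pass the test.

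**Figure D3:**
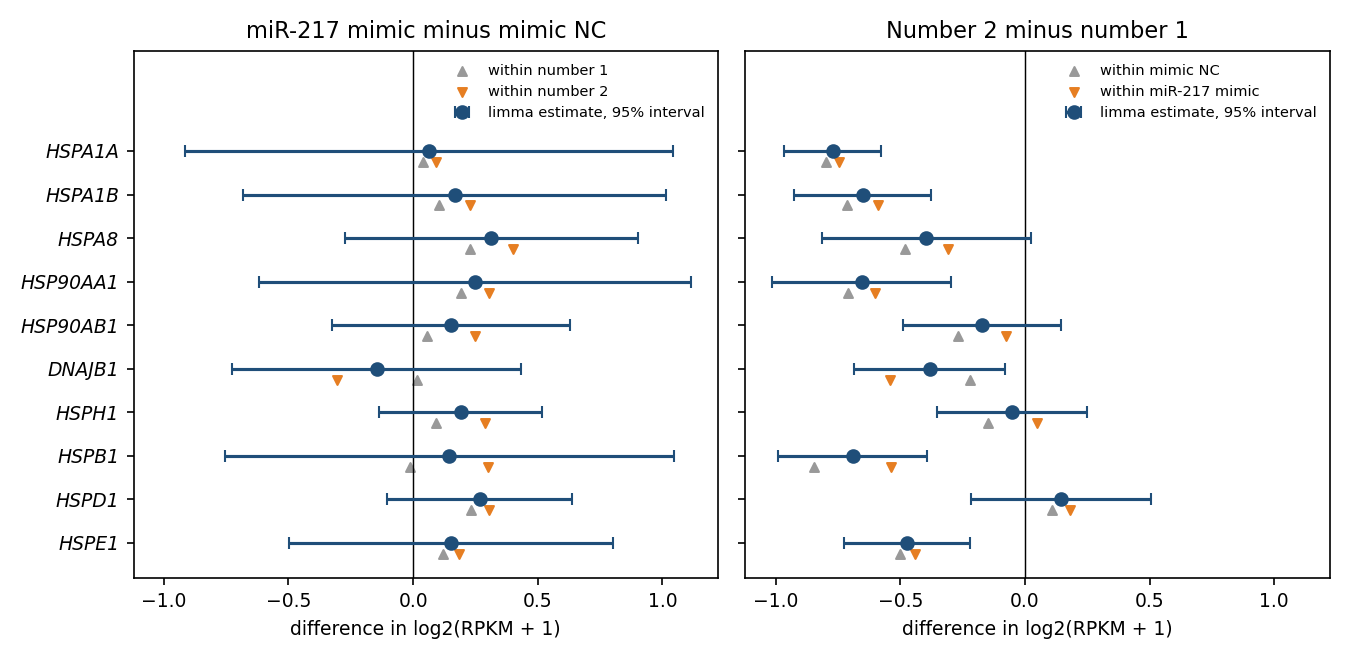
Differences in log2(RPKM + 1) of the 10 members, miR-217 mimic minus mimic NC on the left and number 2 minus number 1 on the right. Circles are limma estimates with 95% intervals over the 4 libraries and triangles are single-library differences within a number or group, and on the left all 10 intervals include 0 while on the right those of HSPA1A, HSPA1B, HSP90AA1, DNAJB1, HSPB1 and HSPE1 lie below 0.

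The second comparison set the libraries numbered 2 against those numbered 1, a mimic NC and a miR-217 mimic library on each side, because the libraries differed most along this line. It uses the same 4 libraries as the first. Both this comparison and the genes were chosen with earlier results of these data known, so the counts that follow are a description. The stress-inducible HSP70 genes HSPA1A and HSPA1B and the small heat shock protein gene HSPB1 were lower in the libraries numbered 2, with differences in mean RPKM of -41.6%, -36.3% and -38.3%. They passed at an adjusted p under 0.05 (limma, Benjamini-Hochberg), 3 of 10 members compared with 3.71% of all genes lower and 7.04% in either direction. At an unadjusted p under 0.05, 6 of 10 members were lower, compared with 17.4% of all genes lower and 30.2% in either direction. In 8 of 10 both libraries numbered 2 lay below both numbered 1, as 35.5% of all genes did. The median log2 difference of the members was -0.43, compared with -0.04 over all genes tested. In bulk RNA, fewer cells with a high level and a lower level in every cell cannot be told apart.

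HSPA1A (hg38, chr6:31815464-31817946, plus strand), whose protein is made in quantity under heat, had 178.8 and 102.4 RPKM in mimic NC libraries 1 and 2 and 183.6 and 109.2 in miR-217 mimic libraries 1 and 2. The libraries numbered 1 lay close to each other, and both numbered 2 were lower, with no overlap. The means by number were 181 ± 3.39 and 106 ± 4.81 RPKM (SD, n = 2 each). The log2 difference was -0.77 ± 0.08 (SE, limma, Benjamini-Hochberg adjusted p = 0.0181). HSPA1B (chr6:31827735-31830255, plus strand), 9788 bases away and coding for almost the same protein, had 208.1 and 126.5 RPKM in the mimic NC libraries and 223.7 and 148.4 in the miR-217 mimic libraries. Its log2 difference was -0.65 ± 0.11 (SE, limma, Benjamini-Hochberg adjusted p = 0.0400). Within mimic NC the difference was -0.80 for HSPA1A and -0.71 for HSPA1B, and within miR-217 mimic it was -0.74 and -0.59.

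The pair cannot be separated well by short reads. Their coding sequences of 1926 bases differ at 4 positions (99.8% identical), and 69.9% of the 100-base windows of the HSPA1A transcript occur unchanged in HSPA1B. How the counting shared such reads is not given in the sources used here. Their summed RPKM, which does not depend on how reads are split within the pair, was 386.9 and 228.9 in the mimic NC libraries and 407.4 and 257.6 in the miR-217 mimic libraries. The sum differed by -38.7% in the libraries numbered 2 and passed when tested as 1 gene (limma, unadjusted p = 0.000714, adjusted p under 0.05). The ratio of HSPA1A to HSPA1B was 0.860 in mimic NC and 0.821 in miR-217 mimic libraries numbered 1. In those numbered 2 it was lower, at 0.810 and 0.736, and no test was made of it.

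HSPB1 (HSP27, chr7:76302544-76304295, plus strand), which holds unfolded proteins and binds actin filaments, had 65.5 and 36.0 RPKM in the mimic NC libraries and 65.1 and 44.6 in the miR-217 mimic libraries. The libraries numbered 1 were almost equal, and both numbered 2 were lower. The log2 difference was -0.69 ± 0.12 (SE, limma, Benjamini-Hochberg adjusted p = 0.0410). The calls of HSPA1A, HSPA1B and HSPB1 depended on both libraries numbered 1: at an adjusted p, 0 members passed without mimic NC replicate 1 or without miR-217 mimic replicate 1, where 9 and 14 of all genes passed (limma). Their log2 differences in these fits were -0.79 and -0.75 for HSPA1A, -0.70 and -0.60 for HSPA1B and -0.69 and -0.70 for HSPB1. Without mimic NC replicate 2 or without miR-217 mimic replicate 2, 6 members passed, as did 3917 and 1745 of all genes. Without the filter on low values, 0 members and 3 of all 32955 genes passed.

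HSP90AA1 and HSPE1 had unadjusted p-values of 0.00548 and 0.00495 (limma), compared with 0.00199 for HSPB1, the highest among the called members. They did not pass after adjustment. Both passed with group as a term, with limma voom on the recovered reads and when the filter was set at an average of 5 RPKM. HSP90AA1 (chr14:102080738-102139699, minus strand), the inducible HSP90, had 636.0 and 388.2 RPKM in the mimic NC libraries and 727.7 and 479.8 in the miR-217 mimic libraries. Both libraries numbered 2 were below both numbered 1, with a log2 difference of -0.66 ± 0.14 (SE, limma, Benjamini-Hochberg adjusted p = 0.0583). HSPE1 (chr2:197499994-197503457, plus strand) had 153.5 and 108.0 RPKM in the mimic NC libraries and 167.0 and 122.8 in the miR-217 mimic libraries, and a log2 difference of -0.47 ± 0.10 (SE, limma, Benjamini-Hochberg adjusted p = 0.0559). Of the exon bases of HSPE1, 9.71% are also in HSPE1-MOB4, a readthrough gene with nearly the same read numbers in each library (17725 reads compared with 17578 of HSPE1 in mimic NC library 1), and 14.2% face HSPD1 on the other strand, so reads of these genes could not be assigned with certainty. Exons of other genes covered at most 6.62% of the bases of the other members, and pseudogene copies in the table held at most 2.44% as many reads as their parent, the highest share being that of HSP90AA1.

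DNAJB1 and HSPA8 also lay lower in both libraries numbered 2. DNAJB1 (chr19:14514770-14529770, minus strand) had 51.4 and 43.9 RPKM in the mimic NC libraries and 51.9 and 35.4 in the miR-217 mimic libraries, and a log2 difference of -0.38 ± 0.12 (SE, limma, unadjusted p = 0.0228, adjusted p = 0.109). HSPA8 (chr11:123057489-123063230, minus strand) had a log2 difference of -0.39, with a 95% interval from -0.81 to 0.02 (limma, unadjusted p = 0.0601). With group as a term the unadjusted p was 0.00799 (limma), and with voom and group as a term HSPA8 passed at an adjusted p under 0.05. HSP90AB1 (chr6:44246166-44253888, plus strand), at 1866 and 1547 RPKM in the mimic NC libraries and 1938 and 1838 in the miR-217 mimic libraries, had the smallest difference among the genes whose libraries did not overlap, -0.17 (limma, unadjusted p = 0.218).

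HSPH1 and HSPD1 did not share the order of the other 8. HSPH1 (chr13:31134974-31162388, minus strand) averaged 37.6 ± 1.76 RPKM in the libraries numbered 1 and 36.4 ± 5.31 in those numbered 2 (SD, n = 2 each). HSPD1 (chr2:197486581-197516737, minus strand) averaged 138 ± 15.8 and 153 ± 22.8 RPKM, and its log2 difference was 0.15 (limma, 95% interval -0.21 to 0.51, unadjusted p = 0.346).

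Ratios within a library, which do not depend on its total, set related members side by side. HSPE1 to HSPD1, the lid and the barrel of the mitochondrial chaperonin, stood at 1.21 in mimic NC and 1.12 in miR-217 mimic libraries numbered 1, and at 0.788 and 0.725 in those numbered 2. HSP90AA1 to HSP90AB1, the inducible to the constitutive HSP90, stood at 0.341 and 0.375 in the libraries numbered 1 and at 0.251 and 0.261 in those numbered 2. HSPA1A to HSPA8, the inducible to the constitutive HSP70, stood at 0.814 and 0.714 and at 0.652 and 0.526. All 3 ratios were lower in both libraries numbered 2, and no test was made of them. The first compares genes that overlap on opposite strands by 281 bases, as described for HSPE1.

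**Figure D4:**
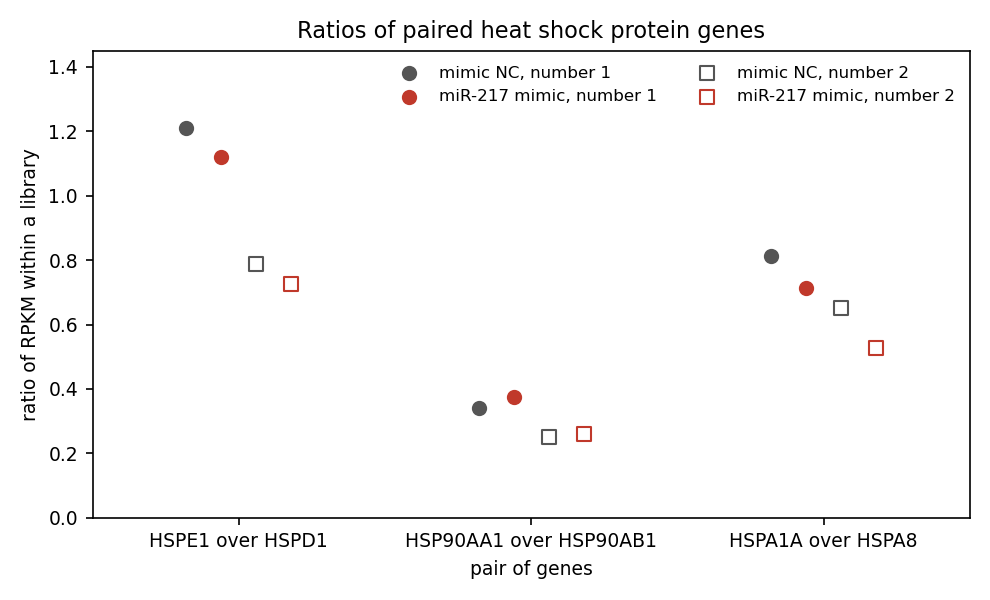
Ratios of the RPKM of 2 heat shock protein genes within each of the 4 libraries, on a linear axis from 0. The open squares (number 2) lie below the filled circles (number 1) for each pair, for example at 0.725 and 0.788 compared with 1.12 and 1.21 for HSPE1 over HSPD1.

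The transcription factors of the heat shock response did not pass the test at an adjusted p in either comparison. HSF1, the main activator, had 7.04 and 8.45 RPKM in the mimic NC libraries and 6.48 and 8.74 in the miR-217 mimic libraries, higher in both libraries numbered 2 (log2 difference 0.31, limma, unadjusted p = 0.0109, adjusted p = 0.0780). HSF2 stayed between 5.39 and 5.95 RPKM. HSBP1, which binds HSF1 trimers and is described as a negative regulator, had a log2 difference of -0.27 (limma, unadjusted p = 0.0104).

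Of the other heat shock and chaperone genes, 95 of 109 listed were tested, and 0 had an unadjusted p under 0.05 with miR-217 mimic in limma. Their median log2 fold change was 0.02, compared with 0.16 for the 10 members. Between the numbers their median was 0.04, with 5 higher and 3 lower at an adjusted p under 0.05 (limma, Benjamini-Hochberg). Of all 13871 genes tested, 463 were higher and 514 lower at this threshold, 7.04% in either direction.

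Other genes known to be raised by HSF1, a list that shares genes with those that follow, were mostly lower in the libraries numbered 2, with 10 of 17 lower (compared with 17.4% of all genes) and 1 higher at an unadjusted p under 0.05 and a median log2 difference of -0.31. At an adjusted p under 0.05, 1 of 17 passed, compared with 7.04% of all genes in either direction. It was DNAJB4, an HSP40 gene (-0.48, limma, Benjamini-Hochberg adjusted p = 0.0454). DNAJA1, an abundant HSP40 gene, had 406.9 and 295.4 RPKM in the mimic NC libraries and 411.7 and 335.1 in the miR-217 mimic libraries, and UBB, a polyubiquitin gene, had a log2 difference of -0.37. Among other HSP40 genes the counts at an unadjusted p were 4 higher and 2 lower of 25, compared with 30.2% of all genes in either direction. One of the higher genes was DNAJC2, a ribosome-bound factor, at 0.47.

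Other HSP70 and HSP110 genes went both ways, with 3 of 8 higher and 4 lower at an unadjusted p under 0.05. Over all genes the share in either direction was 30.2%. HSPA9, the mitochondrial HSP70, was higher in the libraries numbered 2, with 289.9 and 514.4 RPKM in the mimic NC libraries and 301.8 and 545.4 in the miR-217 mimic libraries (log2 difference 0.84, limma, Benjamini-Hochberg adjusted p = 0.0181). HSPA13 was also higher (0.55, adjusted p = 0.0330 in limma), and HSPA2 was lower (-0.55, adjusted p = 0.0372 in limma). HSPA1L, which lies beside HSPA1A, had -0.34.

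Mitochondrial chaperones and proteases were mostly higher in the libraries numbered 2, with 7 of 13 higher (compared with 1773 of all 13871 genes) and 1 lower (CLPB) at an unadjusted p under 0.05 and a median log2 difference of 0.21. LONP1, a protease of the mitochondrial matrix, was at 27.9 and 54.7 RPKM in the mimic NC libraries and 29.1 and 51.2 in the miR-217 mimic libraries (0.87, limma, Benjamini-Hochberg adjusted p = 0.0147). GRPEL2, an exchange factor of HSPA9, was higher by 0.63 (limma, adjusted p = 0.0389). HSPE1 and HSPD1, which also act in mitochondria, were at -0.47 and 0.15 in the same comparison.

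Co-chaperones of HSP70 and HSP90 had 7 of 26 genes lower and 1 higher at an unadjusted p under 0.05 (compared with 17.4% lower and 30.2% in either direction over all genes), among them BAG1, an exchange factor (-0.69), and UNC45A (-0.44), neither of which passed at an adjusted p under 0.05 (limma, Benjamini-Hochberg). FKBP5, an HSP90 partner, was at 0.26. In the cytosolic chaperonin TRiC with prefoldin, 1 of 14 was higher and 2 were lower at an unadjusted p under 0.05. Over all genes the share in either direction was 30.2%. The higher gene was PFDN2 (0.73, adjusted p = 0.0337 in limma), and the lower genes were PFDN5 (-0.37) and CCT3 (-0.26). Of the other small heat shock genes 2 were expressed enough to be tested, HSPB8 (-0.33) and HSPB11 (-0.27).

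Genes outside the cytosolic heat shock response also differed between the numbers. Like the members and the lists above, these lists were chosen with earlier results of these data known, so their counts are a description. Of genes raised by ATF4 in the integrated stress response, 8 of 9 tested were higher in the libraries numbered 2 at an adjusted p under 0.05. Of all 13871 genes, 463 were higher and 514 lower at this threshold. The median log2 difference of the ATF4 genes was 1.50, among them ASNS (2.13) and DDIT3 (1.94). Of endoplasmic reticulum chaperones, 4 of 18 were higher and 2 lower at an adjusted p under 0.05, for example DNAJC10 (0.52) and CALR (-0.77, 882.2 and 480.7 RPKM with mimic NC). KRT18, a keratin, was at 302.9 and 282.7 RPKM in the libraries numbered 1 and at 154.7 and 141.9 in those numbered 2. The part of these differences, of the read totals and of the mitochondrial share in the lower levels of the heat shock protein genes was not tested.

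**Figure D5:**
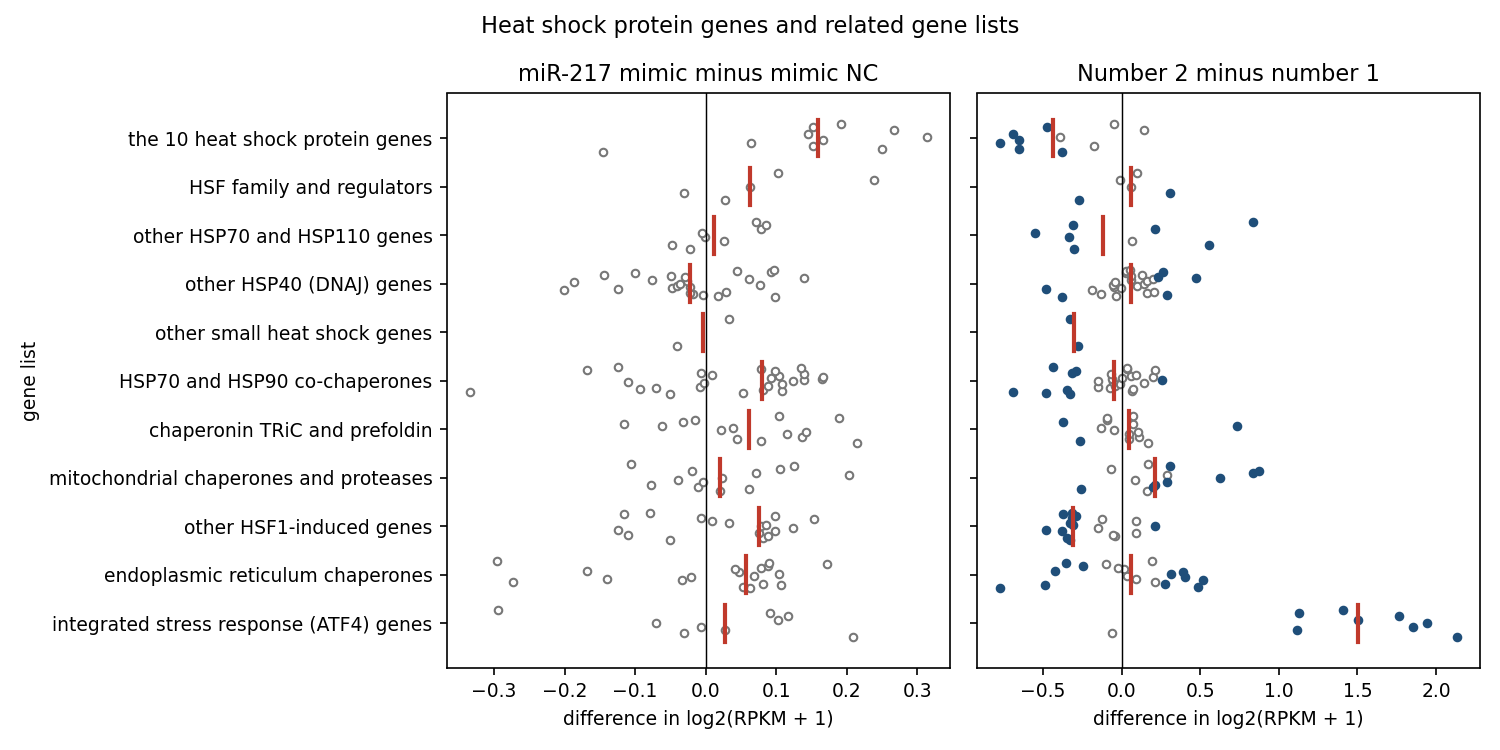
Differences in log2(RPKM + 1) of each tested gene in the 10 members and in 10 lists of other genes, miR-217 mimic minus mimic NC on the left and number 2 minus number 1 on the right, each panel with its own scale. Filled points have an unadjusted p under 0.05 (limma) and red bars are medians, which for the members are 0.16 on the left, where no point is filled, and -0.43 on the right.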

How the data were processed

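RPKM values of 32955 genes were deposited by the authors in a single table. Per the labels, RNA was taken from transfected MDA-MB-231 with TRIzol and made into stranded mRNA libraries. The submitters' processing notes name Trimmomatic 0.36, featureCounts, Subread 1.5.1, edgeR 3.12.1 and the build hg38. The aligner and the settings for strand and shared reads are not given in the sources used here. Every value above 0 was a whole multiple (tolerance 0.01 reads) of 1 read, which gave the read totals, and RPKM carried no scaling between libraries beyond the total.

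The 13871 genes whose RPKM averaged 1 or more were tested on log2(RPKM + 1) with limma 3.58.1 in R 4.3.3 (trend of the variance, two-sided, Benjamini-Hochberg over all 13871), without a replicate or group term. The pseudocount understates changes of low genes. The members and the 10 other lists were chosen with earlier results of these data known. Named were all members, HSF1, HSF2 and, from each list, at most the 3 largest differences per direction with an unadjusted p under 0.05 (2 genes at most for endoplasmic reticulum and ATF4 genes). HSPE1-MOB4, HSPA6, CRYAB and the cell markers were also named, some after their values were seen. Results were recomputed with a pseudocount of 0.1, without the filter, with a filter at an average of 5 RPKM, with libraries centred on their medians, with a replicate block or group term, with limma voom on the recovered reads, with HSPA1A and HSPA1B summed, and with each library left out. Python 3.11.15 and matplotlib 3.10.9 were used for sequences and plots.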

Additional observations from a re-analysis of the deposited data

Results flagged for a closer look

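In DNAJB1, the miR-217 mimic library was above mimic NC by 0.0144 (log2) between the libraries numbered 1 and at -0.306 between those numbered 2. In HSPB1, the corresponding differences were -0.0107 and 0.302. In HSPH1, the library numbered 2 differed from the library numbered 1 by -0.150 within mimic NC and by 0.0473 within miR-217 mimic. Each of these 3 genes was listed because its single-library differences had opposite signs, and the differences between them were not tested.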

How the results depend on the processing

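With miR-217 mimic, no member passed at an adjusted p under any alternative in limma, and HSPD1, HSPH1, HSPA8 and HSP90AB1 had positive values throughout. The numbers do not show whether libraries were paired; the deviations of same-numbered libraries from their group means correlated at 0.68 over genes. With a replicate block, 3 members (HSPA8, HSP90AA1 and HSPD1) passed at an unadjusted threshold of 0.05 in limma, together with 2 related genes, as 1046 of all genes did, and with voom and the replicate block 5 members, 7 related genes and 1265 of all genes did. Without a filter 1 related gene did, and 0 to 1 when 1 library was left out.

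Leaving out 1 library at a time moved the members' median with the mimic from -0.10 (without mimic NC replicate 2) to 0.43 (without mimic NC replicate 1). The ranges were -0.33 to 0.46 for HSPA1A, -0.19 to 0.52 for HSPA1B, -0.11 to 0.60 for HSP90AA1, -0.42 to 0.13 for DNAJB1, -0.28 to 0.57 for HSPB1 and -0.10 to 0.40 for HSPE1. Such a fit compares unequal mixes of the 2 numbers, and a lone library is assumed to vary like the others.

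Between the numbers, 3 members and 8 related genes passed at an adjusted p. Without a filter 0 members and 0 related genes passed (3 of all 32955 genes tested). At a mean RPKM of at least 5, 5 members (HSPA1A, HSPA1B, HSP90AA1, HSPB1 and HSPE1) and 1097 of all 6953 genes passed, and with group as a term the same 5 and 1163 of 13871. With voom on the recovered reads 6 members, 26 related genes and 2257 of all genes passed, and with voom and group as a term 7, 33 and 3282, compared with 977 of all genes in the fit reported. Leaving out 1 library gave 0 to 6 members, 0 to 29 related genes and 9 to 3917 of all genes, and a median from -0.58 to -0.39. HSPH1 then ranged from -0.20 to 0.094 and HSPD1 from -0.0062 to 0.30. The cause of these changes was not tested. HSPA1A, HSPA1B, HSP90AA1, HSPB1 and HSPE1 were lower with an unadjusted p under 0.05 under every alternative run, with HSPA1A and HSPA1B as 1 gene where they were summed. Read depth as a limit was not tested.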
